A study of Mus musculus with 8 samples.

Results

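The genes described here are the replication-dependent histone genes of the mouse, the clustered genes that make the bulk of the H1, H2A, H2B, H3 and H4 proteins when DNA is copied. They were taken as every symbol that starts with Hist1h, Hist2h or Hist3h in the deposited expression tables, which gave 67 of the 24306 gene symbols kept. There were 6 H1, 18 H2A, 19 H2B, 12 H3 and 12 H4 genes. By cluster, 54 were Hist1 genes on chromosome 13, 10 were Hist2 genes on chromosome 3 and 3 were Hist3 genes on chromosome 11. The choice used no measured value, but it was made with earlier results of these data known.

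The libraries came from E14, a mouse embryonic stem cell (ESC) line, and the study asked what the loss of Wdr68 does to ESC and to their differentiation. The 4 groups, each with 2 libraries, were Wdr68 KO-NPC, neural progenitor cells made from Wdr68 knockout ESC, E14-NPC, the same made from wild-type E14, Wdr68 KO-ESC, undifferentiated knockout ESC, and E14-ESC, undifferentiated wild-type ESC. All ESC were kept with LIF and with inhibitors of Mek and GSK3, on mouse embryonic fibroblast feeders or on gelatin. For NPC, 500 cells per hanging drop formed embryoid bodies for 2 days, which then floated for 2 days and received retinoic acid for 4 days. How the knockout was made, how many clones it stands for and whether the duplicates are separate cultures are not given in the sources used here, so the p-values reflect how far these duplicates lie apart and no more, and that distance may be of technical origin.

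Replication-dependent histone genes are switched on as cells enter S phase and are shut off when DNA synthesis ends. Their mRNAs normally carry no poly(A) tail. They end instead in a short stem-loop that is bound by SLBP, the stem-loop binding protein, and trimmed by the U7 small nuclear ribonucleoprotein, while NPAT drives their transcription at histone locus bodies. Replacement histones such as H3.3, H2A.Z and H1.0 are made outside S phase from ordinary polyadenylated mRNAs. Some clustered histone genes are known to make polyadenylated transcripts as well, which run past the stem-loop, in cells that leave the cycle or differentiate. The libraries were made from RNA purified on oligo(dT) beads, so the values below are levels of histone transcripts in the polyadenylated fraction and not total histone mRNA.

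The 3' stem-loop is shown because it is the feature that sets these mRNAs apart. In GENCODE M21 transcripts (build GRCm38), a 16-letter pattern, GG followed by any 2 bases, CTTTT, any base, AG, any 2 bases and CC, was found in 43 of the 67 genes and in 46 of 55274 other genes (0.0832%). Many of the 24 genes without a match have annotated transcripts that stop near the coding end, so no match says only that these letters are not in the annotated RNA. Of the 43 matches, 26 had the letters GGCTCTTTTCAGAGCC, and the other spellings kept the paired arms. The stem-loops of 6 genes on which the results below turn are given 5' to 3', with the pattern in capitals and 5 flanking bases in lower case.
Hist3h2ba: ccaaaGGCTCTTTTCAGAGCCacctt
Hist3h2a: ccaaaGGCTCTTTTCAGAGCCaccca
Hist1h1e: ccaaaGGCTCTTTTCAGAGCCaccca
Hist1h3e: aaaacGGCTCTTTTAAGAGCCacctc
Hist1h4f: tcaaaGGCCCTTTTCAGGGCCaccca
Hist2h4: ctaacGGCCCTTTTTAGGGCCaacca
The H4 genes in this set begin with GGCCC and end with GGGCC, the others begin with GGCTC and end with GAGCC, and Hist3h2a and Hist1h1e are identical over all the bases shown.

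Promoter windows of RefSeq (GRCm38.p6, 250 bases before to 50 after the gene's start) were found for 61 of the 67 genes, and 4 motifs were searched on both strands. CCAAT, a common activator site, was in 53 of the 61 windows (86.9%), against 37.4% of all 32851 promoters, and it was in every H1, H2A, H2B and H3 window but in 3 of 11 H4 windows. TATAAA was in 35 (57.4%), against 13.6% of all promoters. The octamer ATTTGCAT, bound by POU factors and known for its place in H2B promoters, was in 7 of 18 H2A and 7 of 16 H2B windows and in no H1, H3 or H4 window, against 1.74% of all promoters. The H1 box AAACACA was in 5 of 6 H1 windows, against 7.18% of all promoters, and was missing from the letters of Hist1h1a. It was also in 2 of 18 H2A and 2 of 16 H2B windows, and in no H3 or H4 window. These matches are descriptions and not tested sites, and H2A and H2B genes that face each other share part of a window, so their matches are not independent. The 150 bases before the start are shown for the Hist3 genes, which changed most with differentiation, and for the linker histone genes Hist1h1e and Hist1h1b, with the motifs on either strand in capitals.
Hist3h2ba, chr11:58948761-58948910, plus strand: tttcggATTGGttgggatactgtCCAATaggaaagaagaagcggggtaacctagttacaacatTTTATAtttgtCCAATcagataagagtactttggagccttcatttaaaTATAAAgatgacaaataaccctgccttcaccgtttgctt
Hist3h2a, chr11:58954535-58954684, plus strand: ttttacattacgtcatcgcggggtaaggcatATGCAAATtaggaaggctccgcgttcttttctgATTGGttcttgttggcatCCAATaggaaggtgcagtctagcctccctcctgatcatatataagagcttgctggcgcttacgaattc
Hist1h1e, chr13:23622559-23622708, minus strand: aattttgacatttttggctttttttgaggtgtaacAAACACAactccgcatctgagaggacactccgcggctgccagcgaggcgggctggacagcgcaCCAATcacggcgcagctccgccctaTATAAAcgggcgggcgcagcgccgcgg
Hist1h1b, chr13:21780626-21780775, minus strand: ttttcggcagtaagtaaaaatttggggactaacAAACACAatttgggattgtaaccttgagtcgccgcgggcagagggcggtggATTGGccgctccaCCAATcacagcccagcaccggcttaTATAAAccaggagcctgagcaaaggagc
Both linker histone promoters carry the H1 box, a CCAAT box and a TATA box in the same order, and the Hist3h2a promoter carries the octamer on its reverse strand.

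The tables give FPKM, fragments scaled to transcript length and to the fragments mapped in the library, so levels can be compared between genes per length. The width of the deposited 95% intervals implied 5996686 to 7942662 fragments per library, of which 854 to 2145 fell on histone genes. Per histone gene the median was 25.1 and 20.9 implied fragments in the Wdr68 KO-NPC libraries, 25.4 and 16.2 in E14-NPC, 11.8 and 16.4 in Wdr68 KO-ESC, and 12.3 and 12.1 in E14-ESC, so counting error alone is large for a single gene. Dcaf7, the current symbol of Wdr68, had 8.36 and 8.99 FPKM in Wdr68 KO-NPC, against 27.2 and 29.6 FPKM in E14-NPC, and 2.80 and 2.26 FPKM in Wdr68 KO-ESC, against 12.4 and 14.2 FPKM in E14-ESC. The knockout libraries were lower in both states, as their labels say, and some RNA of the gene was still measured.

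The markers of the labelled cells bear on every comparison with NPC. The 4 ESC markers summed to 4.19 to 7.46 FPKM in the NPC libraries and to 1780 to 1837 FPKM in the ESC libraries. The neural progenitor markers Sox1, Pax6, Nes and Sox2 summed to 29.1 and 28.7 FPKM in Wdr68 KO-NPC, against 77.1 and 77.6 FPKM in E14-NPC, with 81.7 to 96.5 FPKM in the ESC libraries. Sox2 alone had 77.5 to 92.9 FPKM in the ESC libraries, while Sox1, Pax6 and Nes were higher in E14-NPC than in E14-ESC. Sox1 was near 0 in Wdr68 KO-NPC, with 0.269 and 0.651 FPKM, against 2.66 and 3.15 FPKM in E14-NPC. The 4 neuron markers summed to 7.73 and 12.4 FPKM in Wdr68 KO-NPC, against 253 and 276 FPKM in E14-NPC, with 115 to 118 FPKM in the ESC libraries. In the ESC libraries Stmn2 had 77.7 to 79.6 FPKM and Tubb3 35.0 to 39.4 FPKM, while Dcx and Elavl3 had at most 0.713 FPKM. The 6 markers of endothelium and blood summed to 661 and 810 FPKM in Wdr68 KO-NPC, against 88.9 and 68.5 FPKM in E14-NPC. The 7 fibroblast markers summed to 75.9 and 65.8 FPKM in Wdr68 KO-NPC and 89.2 and 100.5 FPKM in E14-NPC, against 0.881 to 1.43 FPKM in the ESC libraries. The NPC libraries of the knockout are therefore called Wdr68 KO-NPC after their label, without a claim on their cell type.

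Duplicates did not always match over the histone genes. In Wdr68 KO-NPC, replicate 1 was above replicate 2 in 51 of the 59 genes tested, with a median log2 ratio of 0.37, while the median over all genes was 0.01. In Wdr68 KO-ESC, replicate 2 was above replicate 1 in 45 of 59, with a median log2 ratio of replicate 1 over 2 of -0.26. The splits were 35 to 24 in E14-NPC and 31 to 28 in E14-ESC. Counts of calls that rest on the knockout libraries are therefore given with and without each of them.

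Histone transcripts were scarce but broadly present in the polyadenylated RNA. Of the 67 genes, 59 reached 1 FPKM in at least 2 libraries and were tested. Their means over the 8 libraries ran from 1.08 to 19.7 FPKM with a median of 6.32 FPKM. The other 8 stayed under that level. They were Hist1h1t, the testis H1 gene, listed at 0 in all libraries, Hist1h2aa, also known from testis, Hist1h2bq and Hist1h2br, which were listed at nearly the same values in every library, and Hist1h2ao, Hist1h4m, Hist2h2aa2 and Hist2h3c1. The last 4 overlap Hist1h2ap, Hist1h4n, Hist2h2aa1 and Hist2h3c2 in the tables, and each of these pairs has almost all its FPKM on 1 member, so the level of the listed member belongs to the pair.

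The 12 genes with the highest means held 36.6% of the summed histone FPKM. They were Hist1h2ap (19.7 FPKM), Hist1h4d (17.8), Hist2h2bb (17.4), Hist2h2aa1 (14.2), Hist1h4n (12.8), Hist1h2bn (12.5), Hist3h2ba (11.8), Hist1h2bc (11.2), Hist1h1a (10.2), Hist3h2a (9.86), Hist1h4c (9.85) and Hist1h3b (9.73). These are means of the FPKM level over 8 libraries. The highest gene of each type was Hist1h1a for the linker histone H1, Hist1h2ap for H2A, Hist2h2bb for H2B, Hist1h3b for H3 and Hist1h4d for H4. Hist1h2ap had 31.5 and 21.9 FPKM in Wdr68 KO-NPC, 26.1 and 18.3 in E14-NPC, 12.1 and 23.4 in Wdr68 KO-ESC and 11.5 and 13.0 in E14-ESC, and a Wdr68 KO-ESC library lay above an E14-NPC library. Hist1h1a had 11.0 and 15.2 FPKM in Wdr68 KO-NPC, 9.66 and 7.91 in E14-NPC, 7.05 and 12.9 in Wdr68 KO-ESC and 8.29 and 10.04 in E14-ESC, and it passed no test in any comparison.

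The other genes of high level show how far duplicates spread. Hist1h4d had 23.3 and 21.9 FPKM in Wdr68 KO-NPC and 24.1 and 19.7 FPKM in E14-NPC, against 12.7 and 16.7 FPKM in Wdr68 KO-ESC and 16.2 and 7.62 FPKM in E14-ESC. Its NPC libraries were all above its ESC libraries. Hist2h2aa1, an H2A gene, had 22.0 and 11.1 FPKM in Wdr68 KO-NPC and 14.8 and 12.3 FPKM in E14-NPC, against 13.3 and 14.6 FPKM in Wdr68 KO-ESC and 11.2 and 14.4 FPKM in E14-ESC. Its states overlapped in both genotypes. Hist1h2bc, an H2B gene, had 13.9 and 9.84 FPKM in Wdr68 KO-NPC and 9.52 and 7.61 FPKM in E14-NPC, against 7.87 and 15.6 FPKM in Wdr68 KO-ESC and 11.5 and 13.9 FPKM in E14-ESC. It had the most negative change of the set in the wild type, -0.52 ± 0.30 on the log2 scale, which did not pass the test (limma adjusted p = 0.156).

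**Figure D1:**
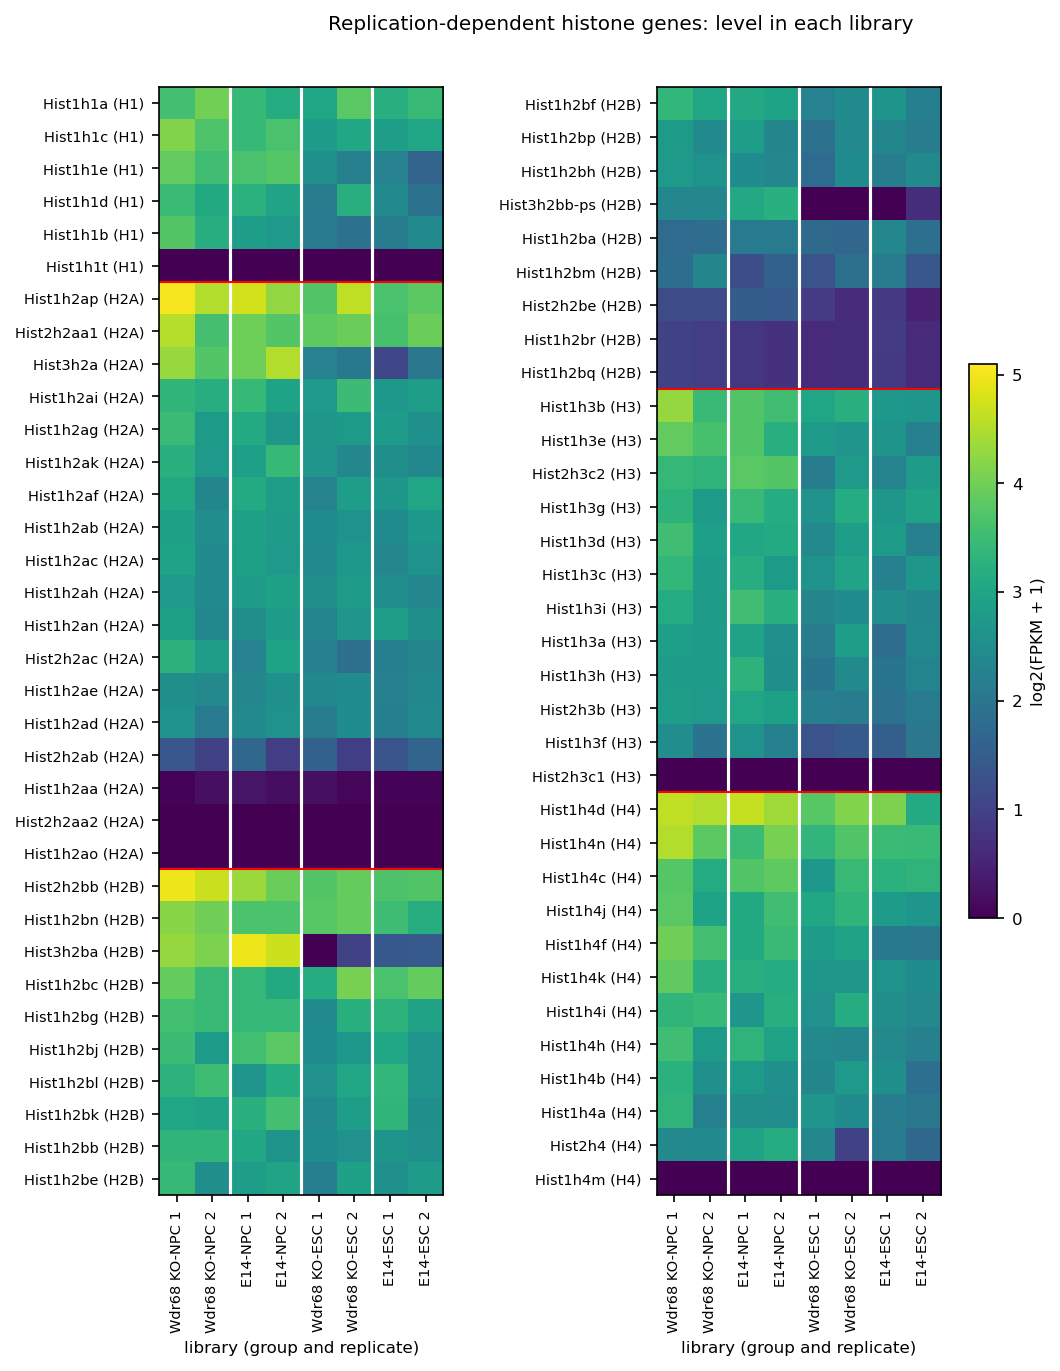
Each row is 1 of the 67 histone genes, grouped by type with red lines between types and ordered by mean level, and each column is 1 library. The colour gives log2(FPKM + 1), and the Hist3 genes are darker in each of the 4 ESC libraries than in any NPC library. White lines part the groups.

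The 5 types kept similar shares of the summed histone FPKM in all 8 libraries. H2B took 25.2% to 32.1%, H2A 21.6% to 28.5%, H4 18.2% to 23.4%, H3 13.9% to 19.2% and H1 8.12% to 11.3%. The highest H1 shares were in the Wdr68 KO-NPC libraries, at 10.1% and 11.3%, against 8.67% and 8.87% in E14-NPC. The Hist3 cluster held 6.60% and 6.94% in Wdr68 KO-NPC and 9.99% and 11.0% in E14-NPC, against 1.29% and 1.09% in Wdr68 KO-ESC and 0.864% and 1.77% in E14-ESC. The Hist1 cluster held 76.4% to 80.0% in the NPC libraries and 83.6% to 87.8% in the ESC libraries.

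Summed over all 67 genes, the level was 628 and 470 FPKM in Wdr68 KO-NPC and 525 and 501 FPKM in E14-NPC, against 295 and 385 FPKM in Wdr68 KO-ESC and 321 and 305 FPKM in E14-ESC. Every NPC library was above every ESC library, and the knockout libraries of each state lay on both sides of the wild-type ones. The ratio of group means was 1.64 for E14-NPC over E14-ESC and 1.62 for Wdr68 KO-NPC over Wdr68 KO-ESC. Ratios of single libraries ran between 1.56 and 1.72 in the wild type and between 1.22 and 2.13 in the knockout. Without the Hist3 cluster these ratios were 1.49 and 1.52. In bulk RNA, fewer cells of a type and less RNA per cell cannot be told apart.

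By type, the E14-NPC over E14-ESC ratio was 1.72 for H1, 1.51 for H2A, 1.56 for H2B, 1.92 for H3 and 1.68 for H4. For Wdr68 KO-NPC over Wdr68 KO-ESC it was 1.96 for H1, 1.39 for H2A, 1.75 for H2B, 1.65 for H3 and 1.56 for H4. Only for H2A in the knockout did the libraries of the 2 states overlap, with 153 and 102 FPKM in Wdr68 KO-NPC, against 80.8 and 102 FPKM in Wdr68 KO-ESC. No test was run on these sums. Small RNA genes, whose short length inflates FPKM, took 23.95% to 28.6% of the summed FPKM in NPC libraries and 31.1% to 40.3% in ESC libraries, and their part in these ratios was not tested.

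**Figure D2:**
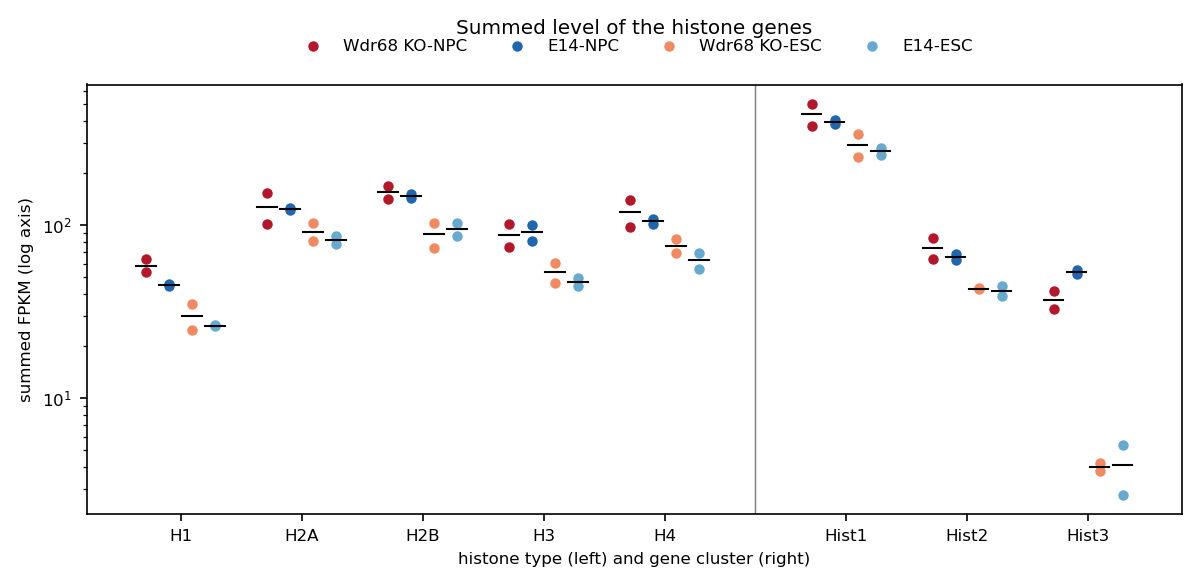
Summed FPKM of the histone genes by type and by cluster, on a log axis, with 1 point per library and a black line at the mean of the 2 libraries of a group. The Hist3 sums are 32.6 to 55.2 FPKM in the 4 NPC libraries and 2.77 to 5.40 FPKM in the 4 ESC libraries, while the sum of each of the 5 types is less than 2-fold higher in NPC than in ESC of the same genotype, by group means.

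The first comparison asks how histone transcripts changed when wild-type ESC became NPC. The largest changes were in the small Hist3 cluster, which spans 6282 bases of chromosome 11 (mm9) and holds an H2B gene, an H2A gene and an H2B pseudogene. Hist3h2ba (chr11:58762413-58762874), the H2B gene, had 30.3 and 25.1 FPKM in E14-NPC, against 1.66 and 1.76 FPKM in E14-ESC. The groups lay far apart, and the log2 change in FPKM + 1 was 3.40 ± 0.30 (SE, n = 2 per group, limma adjusted p = 4.04e-05). Hist3h2a (chr11:58768187-58768694), the H2A gene, had 14.8 and 21.7 FPKM in E14-NPC, against 1.11 and 3.06 FPKM in E14-ESC, a log2 change of 2.69 ± 0.34 (limma adjusted p = 0.000274). Hist3h2bb-ps (chr11:58767550-58768014), an H2B pseudogene that faces Hist3h2a across 172 bases, had 7.40 and 8.41 FPKM in E14-NPC, against 0 and 0.578 FPKM in E14-ESC. The pseudogene passed the filter only through its NPC libraries, so a difference was bound to follow and its call, which is among the counts below, supports nothing. The same holds for Hist2h2be, an H2B gene of the Hist2 cluster. It had 1.82 and 1.70 FPKM in E14-NPC, against 0.796 and 0.382 FPKM in E14-ESC.

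Hist3h2ba and Hist3h2a had large changes in the knockout as well. Hist3h2ba had 18.5 and 16.1 FPKM in Wdr68 KO-NPC, against 0 and 1.01 FPKM in Wdr68 KO-ESC, a log2 change of 3.69 ± 0.30 (limma adjusted p = 3.00e-05). Hist3h2a had 18.8 and 12.4 FPKM in Wdr68 KO-NPC, against 3.80 and 3.20 FPKM in Wdr68 KO-ESC, a log2 change of 1.86 ± 0.34 (limma adjusted p = 0.00200). Hist3h2bb-ps had 4.13 and 4.17 FPKM in Wdr68 KO-NPC and was listed at 0 in both Wdr68 KO-ESC libraries, and its test is not read here either, since it passed the filter on low values only through NPC libraries. Under each of the 11 alternatives run per comparison, the left-out libraries included, Hist3h2ba and Hist3h2a stayed higher in NPC with an adjusted p under 0.05. Their depth in ESC was very low, with at most 4 implied fragments for Hist3h2ba and at most 11.9 for Hist3h2a in any ESC library.

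Genes beside the cluster were looked at as well. Trim17, the next gene listed past Hist3h2a, at chr11:58777283-58785231 (mm9), was at 0 to 0.0743 FPKM in every library. Rnf187, on the other side, had 80.0 and 75.7 FPKM in Wdr68 KO-NPC and 72.1 and 77.6 FPKM in E14-NPC, against 39.3 and 42.2 FPKM in Wdr68 KO-ESC and 39.8 and 38.5 FPKM in E14-ESC. Trim11 had 12.01 and 9.69 FPKM in Wdr68 KO-NPC and 8.44 and 8.08 FPKM in E14-NPC, against 8.07 and 7.34 FPKM in Wdr68 KO-ESC and 7.92 and 6.93 FPKM in E14-ESC. All 4 NPC libraries were above all 4 ESC libraries for both neighbours. In the tables no entry of another gene overlapped an entry of a histone gene.

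**Figure D3:**
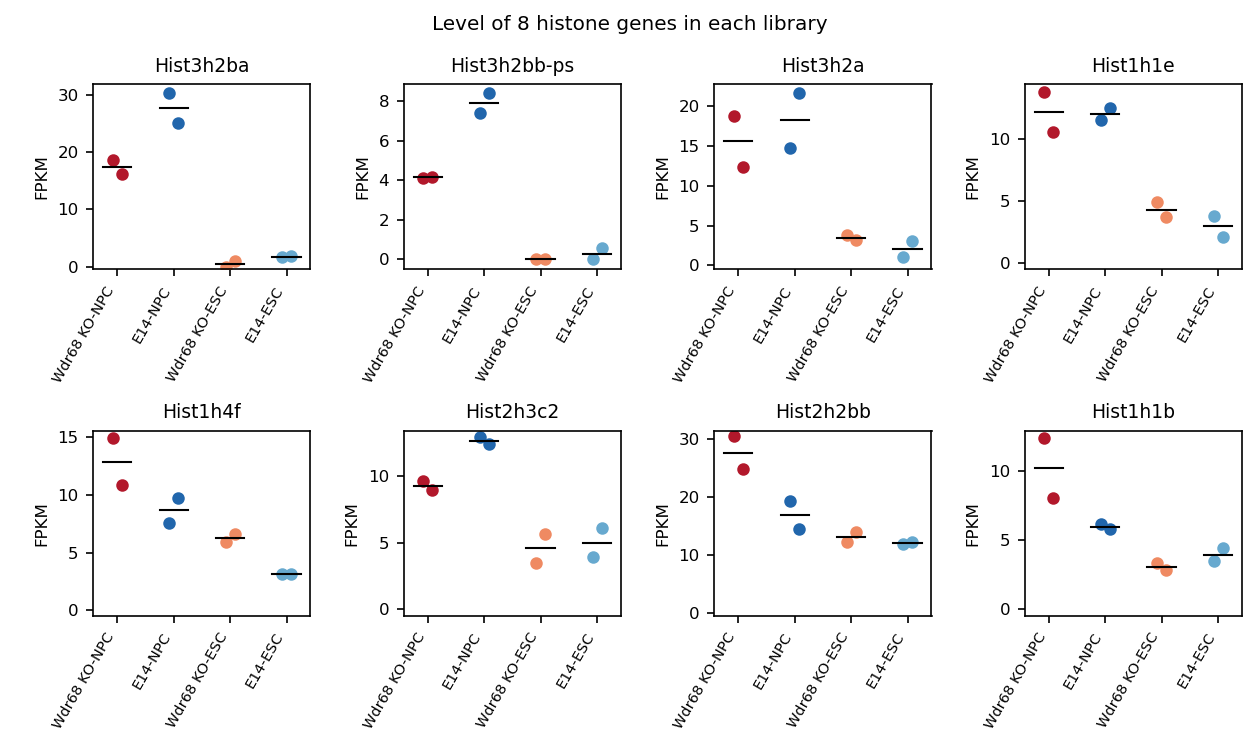
FPKM of 8 histone genes, with 1 point per library and a black line at the mean of the 2 libraries, for Wdr68 KO-NPC, E14-NPC, Wdr68 KO-ESC and E14-ESC from left to right. In all 8 genes every NPC library is above every ESC library, and in Hist1h4f, Hist2h2bb and Hist1h1b the Wdr68 KO-NPC libraries are the highest.

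Over the whole set, 24 of the 59 genes tested were called higher in E14-NPC than in E14-ESC (40.7%) and none lower by limma at an adjusted p under 0.05, while 26 were higher and none lower at an unadjusted p under 0.05. Over all 13318 genes tested, 41.6% were called higher and 31.1% lower. The share that was higher is therefore near that of all genes, and no histone gene was among the genes called lower. Their median log2 change was 0.48, against 0.15 over all genes, and 52 of 59 had a positive change. A scaling on the median ratio of the libraries moved the median of all genes to 0.02 and that of the histone genes to 0.36, and left 15 called higher. The count was 15 without E14-NPC replicate 1, 15 without E14-NPC replicate 2, 20 without E14-ESC replicate 1 and 14 without E14-ESC replicate 2.

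Among the H1 genes, which make the linker histones that bind the DNA between nucleosomes, 3 of 5 were higher in E14-NPC (41.6% of all genes were). Hist1h1e had 11.5 and 12.5 FPKM in E14-NPC, against 3.82 and 2.09 FPKM in E14-ESC, a log2 change of 1.75 ± 0.23 (limma adjusted p = 0.000374). Hist1h1c had 9.70 and 11.4 FPKM in E14-NPC, against 6.19 and 7.05 FPKM in E14-ESC, a log2 change of 0.60 ± 0.17 (limma adjusted p = 0.0149). The duplicates of both genes lay apart between the states. Hist1h1d was the other H1 gene called, with a log2 change of 0.97.

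The H3 genes had the highest median change of the core histones. All 11 had a positive change in E14-NPC against E14-ESC, between 0.48 and 1.21 on the log2 scale. The test was passed by 7 of them (63.6%), while 41.6% of all genes were called higher. Hist2h3c2 had 12.9 and 12.4 FPKM in E14-NPC, against 3.89 and 6.06 FPKM in E14-ESC, a log2 change of 1.21 ± 0.23 (limma adjusted p = 0.00204). Hist1h3e had 12.1 and 8.22 FPKM in E14-NPC, against 5.26 and 3.66 FPKM in E14-ESC, a log2 change of 1.03 ± 0.21 (limma adjusted p = 0.00344). Reads of these genes are hard to assign, since 63.5% of the 50-base stretches of Hist2h3c2 recur in Hist2h3c1 and 63.2% of those of Hist1h3e recur in Hist1h3f.

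Of the H4 genes, 5 of 11 were higher in E14-NPC, and all 11 had a positive change. Hist1h4f had 7.57 and 9.77 FPKM in E14-NPC, against 3.15 and 3.12 FPKM in E14-ESC, a log2 change of 1.21 ± 0.17 (limma adjusted p = 0.000527). Its depth in E14-ESC was very low, with 3.23 and 3.87 implied fragments. Hist2h4 had 6.70 and 7.92 FPKM in E14-NPC, against 3.27 and 2.24 FPKM in E14-ESC, a log2 change of 1.16 ± 0.40 (limma adjusted p = 0.0331), and this call was lost in 7 of its 11 alternatives, with adjusted p up to 0.145. Of the genes for the H2A and H2B dimer, 3 of 15 H2A genes and 6 of 17 H2B genes were higher, Hist3 included. The 6 H2B genes include Hist3h2bb-ps and Hist2h2be, which passed the filter only through NPC libraries. Over all genes 41.6% were called higher, beside 45.5% of the H4, 35.3% of the H2B and 20.0% of the H2A genes. The H2A median was 0.27 and the H2B median 0.30, the H3 median 0.78, the H4 median 0.57 and the H1 median 0.60, all as log2 changes.

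In the knockout, 20 of 59 genes (33.9%) were called higher in Wdr68 KO-NPC than in Wdr68 KO-ESC and none lower, with 22 higher and none lower at an unadjusted p under 0.05. Over all genes, 41.6% were called higher and 28.8% lower in this comparison. The count was 14 without Wdr68 KO-NPC replicate 1 and 25 without Wdr68 KO-NPC replicate 2, and it was 16 without Wdr68 KO-ESC replicate 1 and 23 without Wdr68 KO-ESC replicate 2. The median log2 change was 0.53, against 0.17 over all genes, and 57 of 59 changes were positive. With median-ratio scaling the medians were 0.36 over the histone genes and 0.01 over all genes. By type the calls were 3 of 5 H1, 2 of 15 H2A, 6 of 17 H2B, 6 of 11 H3 and 3 of 11 H4 genes.

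Hist1h1b, the gene of H1.5, had 12.4 and 8.06 FPKM in Wdr68 KO-NPC, against 3.31 and 2.80 FPKM in Wdr68 KO-ESC, a log2 change of 1.44 ± 0.20 (limma adjusted p = 0.000491). Hist1h1e had 13.8 and 10.5 FPKM in Wdr68 KO-NPC, against 4.91 and 3.69 FPKM in Wdr68 KO-ESC, a log2 change of 1.31 ± 0.23 (limma adjusted p = 0.00177). In both genes the states did not overlap, and both calls held when any 1 library was left out. Hist2h2bb, an H2B gene, had 30.4 and 24.8 FPKM in Wdr68 KO-NPC, against 12.2 and 13.9 FPKM in Wdr68 KO-ESC, a log2 change of 1.02 ± 0.15 (limma adjusted p = 0.000697). Hist1h3e, with 13.6 and 11.2 FPKM in Wdr68 KO-NPC, against 5.87 and 5.30 FPKM in Wdr68 KO-ESC, had a log2 change of 1.02 ± 0.21 (limma adjusted p = 0.00364). Hist2h2ac, an H2A gene, had 8.70 and 6.17 FPKM in Wdr68 KO-NPC, against 3.75 and 2.70 FPKM in Wdr68 KO-ESC, a log2 change of 0.99 ± 0.26 (limma adjusted p = 0.0112), and this call was lost without Wdr68 KO-NPC replicate 1 (adjusted p = 0.0748) or without Wdr68 KO-ESC replicate 2 (adjusted p = 0.0702).

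The differentiation calls of the knockout and of the wild type share no library. Both used the same estimate of each gene's spread, from a fit of all 8 libraries, so their agreement is not independent. The calls had 16 genes in common. That is 80% of the 20 called in the knockout and 66.7% of the 24 called in the wild type. Over all genes, 41.6% were called higher in each comparison, and the overlap of those calls was not counted. Called in the knockout alone were Hist1h1b, Hist1h2bb, Hist1h2bg and Hist2h2ac. Called in the wild type alone were Hist1h1d, Hist1h2ah, Hist1h2ak, Hist1h2bj, Hist1h3h, Hist1h4d, Hist2h2be and Hist2h4. None of these 12 differed between the genotypes in the test of that difference, given below. The call of Hist2h2be supports nothing, since it passed the filter only through NPC libraries.

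**Figure D4:**
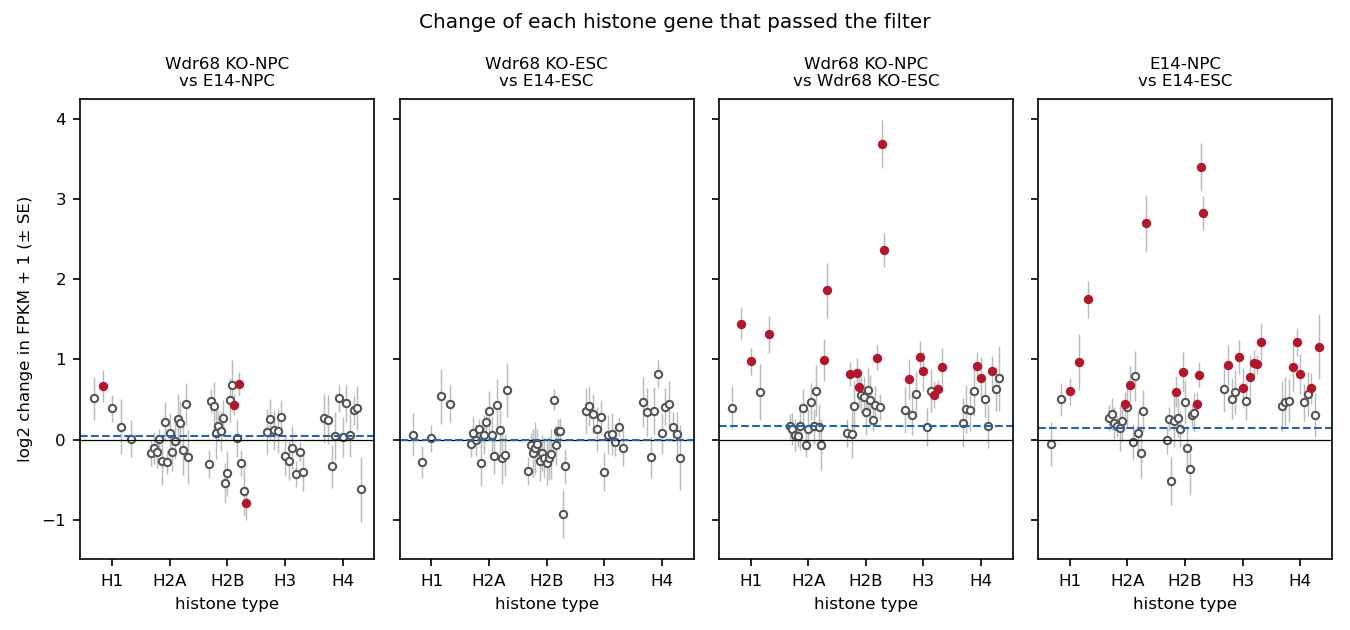
Log2 change in FPKM + 1 of each of the 59 genes tested, with its SE as a grey bar, by histone type in 4 comparisons. Filled red points have an adjusted p under 0.05, and the dashed blue line is the median over all 13318 genes, which lies at 0.05, -0.01, 0.17 and 0.15 from left to right.

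The next comparison asks what the knockout changed within NPC. Of 59 histone genes, 3 were called higher in Wdr68 KO-NPC than in E14-NPC (14.7% of all genes were) and 1 lower (12.7% of all genes were), so both shares lie below those of all genes. At an unadjusted p under 0.05, 5 were higher and 2 lower. The median log2 change was 0.08, against 0.05 over all genes. The count of higher genes was 0 without Wdr68 KO-NPC replicate 1, 6 without Wdr68 KO-NPC replicate 2, 2 without E14-NPC replicate 1 and 0 without E14-NPC replicate 2. Of the sums by type and by cluster, those of H1 and of Hist3 did not overlap between the genotypes. With 2 libraries per group such a separation can arise by chance, and it was not tested. H1 summed to 63.7 and 53.4 FPKM in Wdr68 KO-NPC, against 45.5 and 44.5 FPKM in E14-NPC, and Hist3 to 41.5 and 32.6 FPKM in Wdr68 KO-NPC, against 52.5 and 55.2 FPKM in E14-NPC.

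The 3 higher genes were Hist2h2bb, Hist1h1b and Hist1h2bn. Hist2h2bb had 30.4 and 24.8 FPKM in Wdr68 KO-NPC, against 19.2 and 14.4 FPKM in E14-NPC, a log2 change of 0.69 ± 0.15 (limma adjusted p = 0.0154). Hist1h1b had 12.4 and 8.06 FPKM in Wdr68 KO-NPC, against 6.13 and 5.76 FPKM in E14-NPC, a log2 change of 0.67 ± 0.20 (limma adjusted p = 0.0476). Hist1h2bn, an H2B gene, had 17.2 and 14.8 FPKM in Wdr68 KO-NPC, against 11.5 and 11.6 FPKM in E14-NPC, a log2 change of 0.44 ± 0.13 (limma adjusted p = 0.0495). The libraries of each gene did not overlap between the genotypes. The call of Hist1h2bn was lost in 10 of 11 alternatives, that of Hist1h1b in 8 of 11 and that of Hist2h2bb in 3 of 11, and all of them were lost without Wdr68 KO-NPC replicate 1, with adjusted p of 0.224, 0.208 and 0.0933 in that order, or without E14-NPC replicate 2, with 0.155, 0.178 and 0.0734. Hist1h2bn shares 67.5% of its 50-base stretches with Hist1h2bk, while no stretch of Hist2h2bb or Hist1h1b recurs in another histone gene.

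The 1 lower gene was the pseudogene Hist3h2bb-ps, with 4.13 and 4.17 FPKM in Wdr68 KO-NPC, against 7.40 and 8.41 FPKM in E14-NPC, a log2 change of -0.79 ± 0.21 (limma adjusted p = 0.0306). The values rest on 12.02 to 23.7 implied fragments per library, and the call was lost when any of the NPC libraries was left out, with adjusted p of 0.0770 to 0.137. Hist3h2ba had 18.5 and 16.1 FPKM in Wdr68 KO-NPC, against 30.3 and 25.1 FPKM in E14-NPC, and did not pass the test, with a log2 change of -0.64 ± 0.30 (limma adjusted p = 0.157). Hist3h2a overlapped between the genotypes, with a log2 change of -0.22 ± 0.34 (limma adjusted p = 0.691). Beside these values, the neuron and neural progenitor markers given above were lower and the endothelium and blood markers higher in Wdr68 KO-NPC, and their part in these results was not tested.

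In undifferentiated cells no histone gene was called higher or lower in Wdr68 KO-ESC than in E14-ESC by limma, while 0.128% of all genes were called higher and 0.120% lower. At an unadjusted p under 0.05, 2 histone genes were higher and 1 lower, and the lowest adjusted p was 0.175. That value belonged to Hist1h4f, with 5.92 and 6.63 FPKM in Wdr68 KO-ESC, against 3.15 and 3.12 FPKM in E14-ESC, a log2 change of 0.81 ± 0.17. Hist1h4f was also the H4 gene with the largest differentiation change in the wild type. Both changes use the same E14-ESC libraries, with 3.23 and 3.87 implied fragments for this gene, so neither lends weight to the other. The median log2 change over the histone genes was 0.06, against -0.01 over all genes. The few genes called in the whole table show that this comparison called little of any kind at this depth and spread.

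The difference between both knockout effects, the one in NPC minus the one in ESC, was not called for any histone gene by limma, while 8.41% of all genes were called with a positive and 8.39% with a negative difference. At an unadjusted p under 0.05, 3 were positive and 1 negative. The lowest adjusted p was 0.0653, for Hist1h1b, whose knockout effect was 0.67 in NPC and -0.28 in ESC, a difference of 0.94 ± 0.28 on the log2 scale. Without Wdr68 KO-NPC replicate 2, or without E14-NPC replicate 1, 1 gene was called with a positive difference. The Hist3 genes showed no called difference, with -0.83 ± 0.48 for Hist3h2a and 0.29 ± 0.42 for Hist3h2ba.

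Lists of genes that act with the histone genes were read in the same fit, where 41.6% of all genes were higher and 31.1% lower in the wild type and 41.6% higher and 28.8% lower in the knockout. In the list of 12 S phase and DNA replication genes, 11 were lower and none higher in E14-NPC than in E14-ESC, and 10 were lower in Wdr68 KO-NPC than in Wdr68 KO-ESC. Ccne1, the cyclin of the entry into S phase, had 22.1 and 28.9 FPKM in E14-NPC, against 106 and 111 FPKM in E14-ESC, a log2 change of -2.06 ± 0.11 (limma adjusted p = 4.66e-06). Mcm5, a subunit of the replicative helicase, had 58.8 and 57.9 FPKM in E14-NPC, against 155 and 174 FPKM in E14-ESC, a log2 change of -1.48 ± 0.07 (limma adjusted p = 2.78e-06). The median log2 change of the list was -0.96 in the wild type and -0.54 in the knockout, beside 0.48 and 0.53 for the histone genes in the same order.

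Of 17 genes for histone mRNA processing and histone gene transcription, 9 were lower and 2 higher in E14-NPC than in E14-ESC, and 3 were lower and 4 higher in Wdr68 KO-NPC than in Wdr68 KO-ESC. Slbp had 58.8 and 50.3 FPKM in E14-NPC, against 66.2 and 74.9 FPKM in E14-ESC, a log2 change of -0.37 ± 0.10 (limma adjusted p = 0.0129). Zfp473, a zinc finger protein that works with SLBP and the U7 particle, had 2.18 and 2.27 FPKM in E14-NPC, against 6.76 and 7.70 FPKM in E14-ESC, a log2 change of -1.35 ± 0.11 (limma adjusted p = 3.03e-05). In the knockout Slbp did not pass the test, with a log2 change of -0.18 ± 0.10 (limma adjusted p = 0.1499), and Zfp473 was lower by a log2 change of -1.17 ± 0.11 (limma adjusted p = 6.74e-05). Lsm11, a protein of the U7 particle, was higher in both, with log2 changes of 0.80 and 0.83. Npat had 9.26 and 8.79 FPKM in E14-NPC, against 10.6 and 9.89 FPKM in E14-ESC, and did not pass the test (log2 change -0.16 ± 0.09, limma adjusted p = 0.143).

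Of the replacement and variant histones, 7 of 11 were higher and 4 lower in E14-NPC than in E14-ESC. H1f0, the replacement linker histone H1.0, had 58.6 and 64.3 FPKM in E14-NPC, against 7.48 and 8.34 FPKM in E14-ESC, a log2 change of 2.81 ± 0.13 (limma adjusted p = 2.25e-06). H3f3b, a gene of H3.3, had 536 and 531 FPKM in E14-NPC, against 302 and 310 FPKM in E14-ESC, a log2 change of 0.80 ± 0.06 (limma adjusted p = 2.78e-05). H2afz, the gene of H2A.Z, had 609 and 610 FPKM in E14-NPC, against 1117 and 1182 FPKM in E14-ESC, a log2 change of -0.91 ± 0.09 (limma adjusted p = 6.81e-05). H2afx was lower too, with a log2 change of -0.78 ± 0.12 (limma adjusted p = 0.000755). In the knockout, 7 of 11 were higher and 2 lower in Wdr68 KO-NPC than in Wdr68 KO-ESC. Of 8 histone chaperones, 2 were higher and 6 lower in E14-NPC than in E14-ESC, and 1 was higher and 3 lower in Wdr68 KO-NPC than in Wdr68 KO-ESC.

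**Figure D5:**
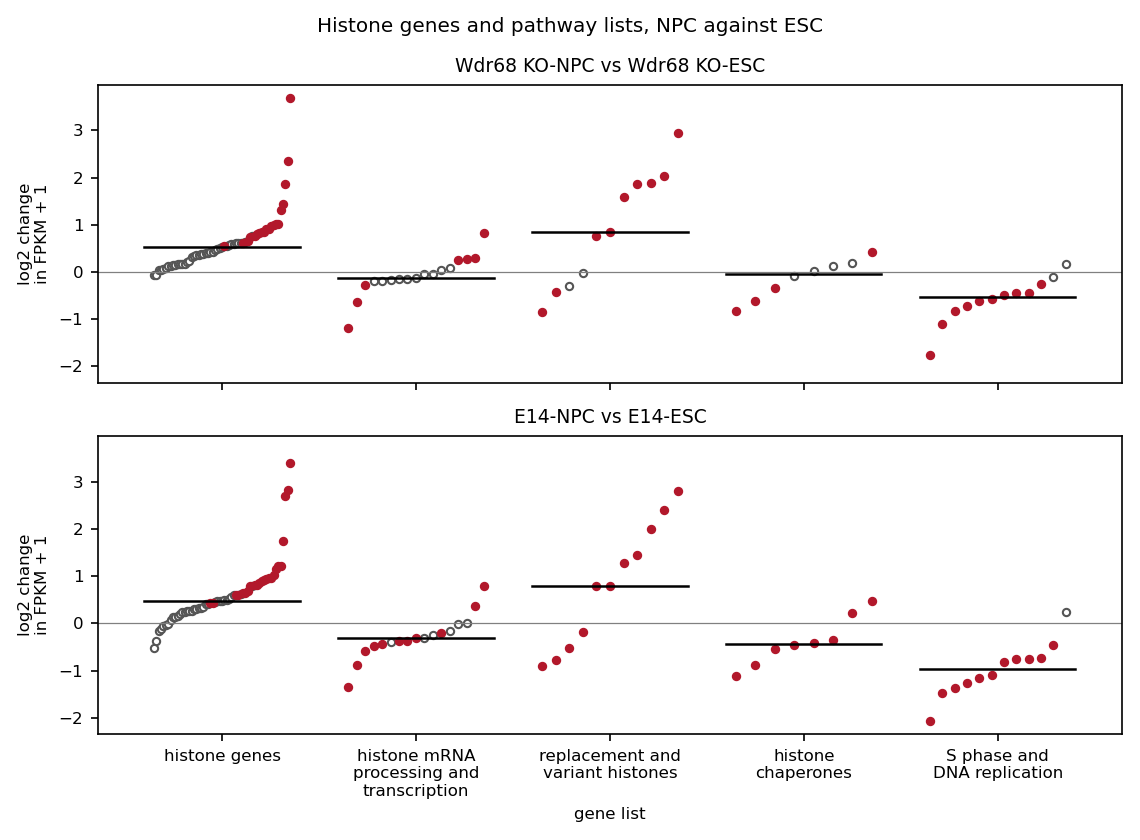
Log2 change in FPKM + 1 on differentiation, Wdr68 KO-NPC against Wdr68 KO-ESC above and E14-NPC against E14-ESC below, for the 59 histone genes and 4 lists, with 1 point per gene, filled red where the adjusted p is under 0.05, and a black line at the median. The histone medians are 0.53 and 0.48, and the S phase medians are -0.54 and -0.96.

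Between the NPC groups most calls in these lists were toward higher levels in Wdr68 KO-NPC. Over all genes 14.7% were higher and 12.7% lower in this comparison. Of the S phase list, 8 of 12 were higher and none lower in Wdr68 KO-NPC than in E14-NPC, of the chaperones 4 of 8 were higher and none lower, of the processing list 3 of 17 were higher and 1 lower, and of the variants 4 of 11 were higher and 1 lower. Mcm5 had 97.1 and 90.8 FPKM in Wdr68 KO-NPC, against 58.8 and 57.9 FPKM in E14-NPC, a log2 change of 0.68 ± 0.07 (limma adjusted p = 0.000731). Npat was higher, with 11.1 and 11.99 FPKM in Wdr68 KO-NPC, against 9.26 and 8.79 FPKM in E14-NPC, a log2 change of 0.33 ± 0.09 (limma adjusted p = 0.0366). H3f3b had 951 and 922 FPKM in Wdr68 KO-NPC, against 536 and 531 FPKM in E14-NPC, a log2 change of 0.81 ± 0.06 (limma adjusted p = 0.000188). Slbp did not pass the test, with a log2 change of 0.27 ± 0.10 (limma adjusted p = 0.0860). In ESC none of the 4 lists had a called gene between Wdr68 KO-ESC and E14-ESC.

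Features of the genes that the choice by name did not use were set beside the changes, as a description made after the values were known. Of the 43 genes with a stem-loop in the annotated transcript, 21 have more than 100 annotated bases after it, between 151 and 4884, and 22 have 3 to 74. In E14-NPC against E14-ESC, 10 of the 19 tested genes with the longer ends were higher, 5 of the 19 with the shorter ends and 9 of the 21 with no match. Among those 9 are Hist3h2bb-ps and Hist2h2be, which passed the filter only through NPC libraries. In Wdr68 KO-NPC against Wdr68 KO-ESC the counts were 8, 6 and 6 in the same order, and in both comparisons 41.6% of all genes were called higher. Median log2 changes were 0.60, 0.46 and 0.44 in E14-NPC against E14-ESC and 0.60, 0.49 and 0.40 in Wdr68 KO-NPC against Wdr68 KO-ESC, and the difference between these groups was not tested. Hist3h2ba has 169 bases after its stem-loop, Hist3h2a 1643, Hist1h1e 1153 and Hist2h4 1257, while Hist1h4f has 33.

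Near-identical copies limit what a single gene's value means, and how the authors counted reads that fit several genes is not given in the sources used here. Over the 67 genes, a median of 47.0% of the 50-base stretches of a gene's transcripts recurred in another histone gene. The median was 73.0% for H2A, 57.2% for H3, 40.1% for H2B, 39.9% for H4 and 1.10% for H1. Hist1h1e shares 32.0%, the most of the H1 genes, and 23.8% of its stretches recur in Hist1h2be. Hist1h1a, Hist1h1b and Hist2h2bb are among the 5 genes that share none, so their values depend least on how such reads were assigned. Of the Hist3 genes, Hist3h2ba shares 22.1% of these stretches with Hist3h2bb-ps, Hist3h2bb-ps shares 30.0% with Hist3h2ba, and Hist3h2a shares 2.00% with Hist1h2ap, and reads from stretches that both of the H2B entries hold cannot be told apart.

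H2A and H2B genes often stand head to head. In GENCODE M21, 13 such pairs have starts less than 500 bases apart, and each joins an H2A with an H2B gene. In 10 of them both members were tested. Hist3h2bb-ps and Hist3h2a, 172 bases apart, were both called higher on differentiation, but the pseudogene entered the test only through NPC libraries, and in the other 9 pairs at most 1 member was called in a comparison. Of Hist2h2ac and Hist2h2be, 238 bases apart, Hist2h2be was called in the wild type and Hist2h2ac in the knockout. Hist2h2be was under 1 FPKM in every ESC library and also passed the filter only through NPC libraries, so its call supports nothing.

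Among the 13259 other genes tested, those whose log2(FPKM + 1) followed the log2 of the summed histone FPKM most closely over the 8 libraries were Rbm24 (Pearson r = 0.993), Srsf9 (0.992), A830010M20Rik (0.986), Tpra1 (0.986) and Dirc2 (0.983). Srsf9 had 61.0 and 48.3 FPKM in Wdr68 KO-NPC and 50.3 and 51.9 FPKM in E14-NPC, against 34.7 and 40.9 FPKM in Wdr68 KO-ESC and 35.9 and 33.1 FPKM in E14-ESC. Its duplicates had the same order as the histone sums in Wdr68 KO-NPC, Wdr68 KO-ESC and E14-ESC, and the opposite order in E14-NPC. The 8 libraries fall into NPC and ESC, which alone gives a high r for many genes, and these genes were picked as the highest of all, so the values are a description with no test.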

How the data were processed

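Polyadenylated, strand-specific RNA-seq libraries of 8 samples were read from 1 table per library. The authors deposited FPKM values with 95% intervals, made with TopHat2 2.1.1 and Cufflinks 2.2.1 on mm9, per the submitters' processing notes. How reads with several matches were weighted, the read length and the sequencing depth are not given in the sources used here. Fragment numbers were implied from the interval width, whose upper bound lies 2 square roots of the fragment number above the value, and they were whole within 0.05 for 60.6% to 65.1% of genes under 5 fragments, against 10% by chance.

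From the deposited FPKM, entries of one symbol were summed, 12 symbols with a failed estimate were left out, and genes with at least 1 FPKM in at least 2 libraries were tested on log2(FPKM + 1) with limma 3.58.1 (R 4.3.3), as 4 group means with a trended prior, two-sided, and Benjamini-Hochberg adjustment over all 13318 genes at a threshold of 0.05. Fold changes on this scale understate the change of low genes. The fit was tested on simulated data. Motifs and stem-loops were matched with Python 3.11.15, pandas 2.3.3 and numpy 2.4.6.

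Named in full were the 12 highest genes, up to 8 per direction and comparison with the largest called change, the highest of each type and the 5 most alike other genes. Other genes named were chosen after their values were seen. The members and lists were chosen with earlier results of these data known. Alternatives were another pseudocount, other filters, median-ratio scaling, the highest entry per symbol, a replicate block, fits of only the groups compared and leaving out each library.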

Additional observations from a re-analysis of the deposited data

Results flagged for a closer look

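No histone gene had a knockout effect that differed between NPC and ESC by the limma interaction term, but 13 of 48 genes of the surrounding lists did, 12 with a positive and 1 with a negative difference, beside 8.41% of all genes with a positive and 8.39% with a negative one, and 10 of them are named here, at most 4 per list, by the size of the difference. The value given is the knockout effect in NPC minus the one in ESC on the log2(FPKM + 1) scale, with limma adjusted p between 0.00219 and 0.0370 over all genes. The SE of these 10 differences was 0.09 to 0.15. Hist1h1b, the histone gene with the lowest adjusted p, had a difference of 0.94 with an SE of 0.28. The calls therefore do not show that the histone genes responded less than the listed genes.

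Among the replication genes, which encode subunits of the helicase that unwinds DNA, the difference was 0.77 for Mcm5 (0.68 in NPC and -0.09 in ESC), 0.66 for Mcm4 (0.49 and -0.17), 0.66 for Mcm6 (0.35 and -0.31) and 0.55 for Mcm3 (0.46 and -0.09). Among the chaperones it was 0.67 for Atrx (0.37 and -0.31) and 0.55 for Nasp (0.28 and -0.27). Among the variant histones it was 0.78 for H3f3b (0.81 and 0.03), 0.43 for H2afv (0.53 and 0.10) and -0.52 for H2afy (-0.39 and 0.13). Ncbp2, a subunit of the cap-binding complex, had a difference of 0.46 (0.41 and -0.05). The difference was positive in all of these genes but H2afy.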

How the results depend on the processing

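Limits are 2 libraries per group, few fragments per gene, poly(A) selection and shared sequence. In Wdr68 KO-NPC against E14-NPC, the 3 genes called higher became 1 with a pseudocount of 0.1, with no filter on low values, with median-ratio scaling and with the replicate block, 0 in a fit of only these 2 groups, and 0 to 6 when single libraries were left out. The 1 gene called lower became 0 with a pseudocount of 0.1 and with no filter, 3 in the fit of only these 2 groups, and 0 to 1 when single libraries were left out. In E14-NPC against E14-ESC, the 24 called higher became 15 with median-ratio scaling and 14 to 20 when single libraries were left out, and 1 was called lower in the fit of only these 2 groups, against 0. In Wdr68 KO-NPC against Wdr68 KO-ESC, leaving out single libraries gave 14 to 25 called higher. For the difference between both knockout effects, 0 to 1 were called positive when single libraries were left out. The log2 ratio of summed FPKM in E14-NPC against E14-ESC was 0.71, and 0.57 with median-ratio scaling. In Wdr68 KO-NPC against E14-NPC it was 0.08, and -0.12 without Wdr68 KO-NPC replicate 1, in a range of -0.12 to 0.29. In Wdr68 KO-ESC against E14-ESC it was 0.11, and -0.084 without Wdr68 KO-ESC replicate 2, in a range of -0.084 to 0.30. The cause was not tested. Of 220 single-gene values under alternatives, 184 kept direction and side of the threshold and 36 kept direction only. Libraries with the same replicate number showed little shared deviation (correlations of -0.05 to 0.18). Such correlations cannot tell whether the numbers stand for shared cultures or preparations, so a pairing remains unknown. The replicate block gave 22 and 20 genes called higher on differentiation in the wild type and the knockout.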
